A study of Mus musculus with 2 samples.

Results

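The genes described here are 33 listed members of the ATF4 stress response and of amino acid supply, found by symbol among the 32285 genes of the deposited tables. All 33 symbols were found: 7 transcription factors, 5 feedback genes and effectors, 5 enzymes of serine synthesis and mitochondrial one-carbon metabolism, 6 other amino acid enzymes, 8 amino acid transporters, and a receptor and a hormone. They were measured by droplet single-cell RNA sequencing in R1 cells, an established mouse embryonic stem cell line derived from early embryos, after 72 hours in N2B27 medium. One library came from LB, cells on gelatin with LIF and BMP4, and the other from LBPXRS, cells on fibronectin with the same factors and with 4 further compounds: SB431542, Xav939, PD0325901 and Resorcyclic lactone. PD0325901 blocks MEK, Xav939 lowers WNT signalling by blocking tankyrase, and SB431542 blocks the activin and NODAL receptors. With 1 library per condition, the medium, the substrate and the culture cannot be told apart, and no difference below has a replicate check.

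In the integrated stress response, kinases that sense amino acid shortage, unfolded protein, double-stranded RNA or haem deficit phosphorylate the initiation factor eIF2, which slows translation in general while the mRNA of ATF4 is translated more. ATF4 pairs with C/EBP proteins and other partners on response elements in target promoters and switches on enzymes that make amino acids, transporters that import them, and transfer RNA synthetases. The response also makes its own brakes, such as TRIB3, which binds ATF4, and GADD34 (Ppp1r15a), which restores eIF2. Because ATF4 is set largely by translation, the level of its mRNA is not a measure of its protein.

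Promoter windows show where the pairing element of C/EBP and ATF proteins is written in the members. The letters searched were TGATGNAA on both strands, in windows from 250 bases before to 50 bases after each start site, taken from RefSeq on GRCm38. A window was found for 29 of the 33 members, and 9 of these (31.0%) held the letters, against 1219 of 27025 genes with a window (4.51%). The stricter TGATGCAA, which is part of the same search, was in 7 members (24.1%) and in 279 genes (1.03%). The cAMP response element TGACGTCA was in 1 member, Ppp1r15a, and in 2.03% of genes. A match is a description of letters and not a bound site. Those of 3 genes are shown whole up to the start site because their genes are discussed most, each 250 bases in the direction of the gene with the match in capitals (Chac1 chr2:119350992-119351241, + strand, Nupr1 chr7:126625471-126625720, - strand, and Asns chr6:7693210-7693459, - strand).
Chac1: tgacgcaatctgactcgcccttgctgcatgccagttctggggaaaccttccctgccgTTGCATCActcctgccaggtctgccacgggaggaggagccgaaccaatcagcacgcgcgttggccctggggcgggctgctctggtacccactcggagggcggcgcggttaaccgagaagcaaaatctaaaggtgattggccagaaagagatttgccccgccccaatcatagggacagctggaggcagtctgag
Nupr1: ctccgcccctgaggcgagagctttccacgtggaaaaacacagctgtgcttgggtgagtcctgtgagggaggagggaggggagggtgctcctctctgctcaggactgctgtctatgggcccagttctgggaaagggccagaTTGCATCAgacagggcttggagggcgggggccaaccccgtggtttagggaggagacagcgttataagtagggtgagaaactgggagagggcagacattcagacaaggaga
Asns: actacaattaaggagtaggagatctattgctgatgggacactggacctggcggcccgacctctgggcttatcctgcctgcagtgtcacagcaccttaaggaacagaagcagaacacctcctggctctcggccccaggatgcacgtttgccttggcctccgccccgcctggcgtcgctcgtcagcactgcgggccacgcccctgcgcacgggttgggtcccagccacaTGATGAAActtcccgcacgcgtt
The first base of the match lay 193 bases before the RefSeq start in Chac1, 110 before it in Nupr1 and 23 before it in Asns. The GENCODE spans given below for Nupr1 and Asns begin further upstream, so that these 2 matches lie inside them. In Chac1 and Nupr1 the element is read on the opposite strand, as TTGCATCA, and in Asns it is read along the gene, as TGATGAAA.

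The other 6 members with a match are shown by the letters around it, since they belong to different branches (Trib3 chr2:152344028-152344057, - strand, Pycr1 chr11:120643833-120643862, - strand, Atf3 chr1:191183425-191183454, - strand, Slc7a11 chr3:50443642-50443690, - strand, Slc1a4 chr11:20332699-20332728, - strand, and Vldlr chr19:27216809-27216838, + strand).
Trib3: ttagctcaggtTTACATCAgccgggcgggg
Pycr1: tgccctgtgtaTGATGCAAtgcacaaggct
Atf3: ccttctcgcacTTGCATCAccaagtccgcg
Slc7a11: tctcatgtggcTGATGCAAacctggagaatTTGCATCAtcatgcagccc
Slc1a4: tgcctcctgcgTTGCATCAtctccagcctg
Vldlr: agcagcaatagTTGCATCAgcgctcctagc
Slc7a11 held 2 matches, 66 and 47 bases before the start, and the match of Trib3 began 14 bases after it. Vldlr has 2 windows, and its match lay 200 bases before the start of the one further along the gene. Of the 11 members at least 2-fold higher in LBPXRS, 10 had a window and 5 held the letters (Nupr1, Trib3, Chac1, Asns and Pycr1). Of the 22 others, 19 had a window and 4 held them (Atf3, Slc7a11, Slc1a4 and Vldlr), so the letters were not limited to genes that were higher.

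After filtering, LB held 1783 cells with a median of 25418 UMIs (unique molecular identifiers, 1 per captured RNA molecule) and LBPXRS 2705 cells with a median of 19058. UMIs were summed over the kept cells and given as CPM, UMIs scaled to a library total of 1000000, so 3 UMIs correspond to 0.0659 CPM in LB and 0.0579 CPM in LBPXRS. Ranges in brackets are exact 95% Poisson intervals, which cover counting error only. Markers fit the label of embryonic stem cells in both libraries: the summed level of 10 naive pluripotency genes was 1012 CPM in LB, 1911 CPM in its naive pluripotent-like cells and 1721 CPM in LBPXRS. Klf2 and Zfp42, both on chromosome 8, were the largest terms of each sum and the 2 of the 10 that were lower in LBPXRS than in the naive pluripotent-like LB cells. LB also held mesoderm-like and trophoblast-like clusters, and its naive pluripotent-like cluster had 587 cells (32.9%). The libraries share 10 of 5119 barcodes.

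The ATF4 genes were mostly higher in LBPXRS, and unevenly so between branches. Of the 33 members, 27 had a log2 ratio above 0 and 6 below 0, with a median of 0.63, beside a median of -0.14 over the 12618 genes that averaged 1 CPM or more. Log2 ratios are log2((CPM + 1) in LBPXRS over LB), and a plain ratio is CPM in LBPXRS over CPM in LB. TMM scaling, which sets most genes equal, moved the median of all genes to 0.00 and that of the members to 0.73, so log2 ratios just below 0 carry no direction of their own. In the 29 members with at least 10 CPM in either library, 11 were at least 2-fold higher and 0 at least 2-fold lower, where 7.98% of all 7661 such genes were higher and 10.4% lower by that much. The 11 were Ddit3, Cebpb, Nupr1, Trib3, Chac1, Psph, Asns, Pycr1, Cth, Cbs and Slc7a1.

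**Figure D1:**
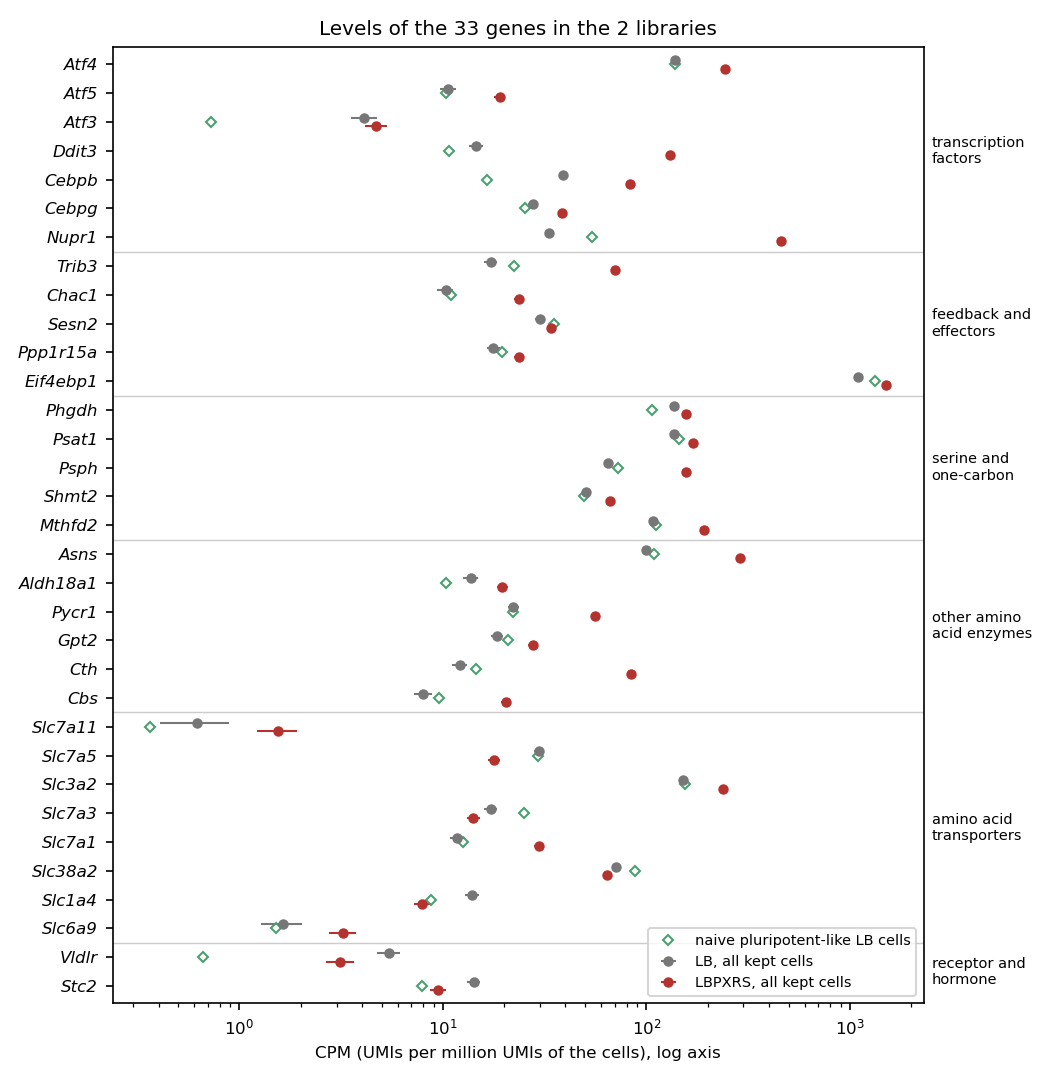
Level of each member in CPM on a log axis, with 95% Poisson intervals for all kept LB cells (grey) and LBPXRS cells (red), and the level in naive pluripotent-like LB cells (open diamonds). Nupr1 lies at 33.3 CPM in LB and 460 CPM in LBPXRS, while Slc7a5, Slc7a3, Slc38a2 and Slc1a4 lie to the left in LBPXRS.

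Among the transcription factors, all 7 had a log2 ratio above 0 (median log2 ratio 0.80), and 3 of the 6 with at least 10 CPM passed 2-fold. Nupr1 (ENSMUSG00000030717, chr7:126623249-126630861, - strand), a small chromatin-associated stress protein, was at 33.3 CPM (31.7 to 35.0) in LB and 460 CPM (454 to 466) in LBPXRS, a ratio of 13.8 (13.1 to 14.5). Ddit3 (ENSMUSG00000025408, chr10:127290774-127296288, + strand), which encodes CHOP, was at 14.6 CPM (13.5 to 15.8) and 130 CPM (127 to 133), a ratio of 8.90 (8.22 to 9.66). These are the widest gaps among the 33 members, and the intervals of the libraries lie far apart. Ddit3 is listed a second time in the gene table, under an overlapping entry on the same strand with 0 UMIs in both libraries, and how reads shared by the entries were treated is not given in the sources used here. Cebpb, a partner of ATF4 and CHOP, was at 39.1 CPM (37.3 to 41.0) and 83.3 CPM (80.8 to 85.8). Atf4 itself was at 139 CPM (136 to 143) in LB and 244 CPM (239 to 248) in LBPXRS, a ratio of 1.75 (1.69 to 1.80), short of 2-fold. Atf5, a related factor also controlled by translation, was at 10.6 and 19 CPM, and Cebpg, a dimer partner of ATF4, at 27.6 and 38.7 CPM. Atf3, an immediate stress factor, was low in both, at 4.11 CPM (3.54 to 4.74) and 4.69 CPM (4.12 to 5.32), and these intervals overlap.

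Of the 5 feedback genes and effectors, Trib3 and Chac1 passed 2-fold. Trib3 was at 17.2 CPM (16.0 to 18.4) in LB and 70.2 CPM (68.0 to 72.6) in LBPXRS, a ratio of 4.09 (3.78 to 4.42). Chac1, which breaks down glutathione, was at 10.3 CPM (9.36 to 11.2) and 23.6 CPM (22.3 to 25.0), a ratio of 2.30 (2.07 to 2.57). It fell short of 2-fold with a pseudocount of 5, and without LBPXRS cluster 3, described below. The other 3 lay nearer to equality. Ppp1r15a was at 17.7 and 23.7 CPM, a ratio of 1.33 (1.22 to 1.46). Sesn2, a leucine sensor that restrains mTORC1, was at 30.1 CPM (28.5 to 31.7) and 34.0 CPM (32.4 to 35.6). Eif4ebp1, which holds back cap-dependent translation, was at 1096 CPM (1086 to 1105) and 1508 CPM (1497 to 1518).

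The serine and one-carbon enzymes were all above 0, but short of 2-fold in 4 of 5, with a median log2 ratio of 0.39. Phgdh, the first enzyme of serine synthesis, was at 136 CPM (133 to 140) in LB and 156 CPM (153 to 160) in LBPXRS, a ratio of 1.15 (1.11 to 1.18). Psat1, the second enzyme, was at 136 CPM (133 to 140) and 170 CPM (166 to 174). Psph, which completes serine synthesis, was at 64.7 CPM (62.4 to 67.1) and 156 CPM (153 to 160), a ratio of 2.41 (2.31 to 2.52). The last step of serine synthesis was thus the one past 2-fold. In the mitochondrial one-carbon arm, Mthfd2 was at 108 CPM (105 to 111) and 192 CPM (188 to 195), a ratio of 1.77 (1.71 to 1.83), and Shmt2, which turns serine into glycine, at 50.3 and 66.2 CPM, a ratio of 1.31 (1.25 to 1.39). The 3′ end of the Phgdh transcript matches 5 processed pseudogenes with at least 97% identity, none of them in the gene table, so reads shared with them were not separated here.

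The other amino acid enzymes stood higher as a branch, with a median log2 ratio of 1.27 and 4 of 6 past 2-fold. Cth (ENSMUSG00000028179, chr3:157894248-157925077, - strand), which makes cysteine from cystathionine, was at 12.1 CPM (11.1 to 13.1) in LB and 83.7 CPM (81.2 to 86.2) in LBPXRS, a ratio of 6.92 (6.33 to 7.58). Cbs, the step before it in transsulfuration, was at 8.0 CPM (7.2 to 8.87) and 20.4 CPM (19.2 to 21.6), a ratio of 2.55 (2.26 to 2.88). Both steps from homocysteine to cysteine were past 2-fold, although Cbs fell short of it with a pseudocount of 5 and against naive pluripotent-like LB cells with centring on the chromosome (0.97). Asns (ENSMUSG00000029752, chr6:7675169-7693254, - strand), asparagine synthetase, was at 100 CPM (97.4 to 103) and 289 CPM (284 to 294), a ratio of 2.88 (2.79 to 2.98). Pycr1, the last step of proline synthesis, was at 22.2 CPM (20.8 to 23.6) and 56.0 CPM (54.0 to 58.1), while Aldh18a1, the first step, was at 13.7 CPM (12.6 to 14.8) and 19.6 CPM (18.5 to 20.9). Gpt2, the mitochondrial alanine transaminase, was at 18.4 and 27.6 CPM, a ratio of 1.5 (1.38 to 1.64).

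The transporters divided evenly, with 4 log2 ratios above 0, 4 below 0 (Slc38a2 at 0.01 with TMM scaling) and a median of 0.25, and 1 of 6 with at least 10 CPM was past 2-fold. That one was Slc7a1, a carrier of arginine and lysine, at 11.7 CPM (10.8 to 12.8) in LB and 29.6 CPM (28.1 to 31.1) in LBPXRS, a ratio of 2.52 (2.28 to 2.79). Slc3a2, the shared heavy chain of several amino acid exchangers, was at 152 CPM (149 to 156) and 237 CPM (233 to 241), a ratio of 1.56 (1.51 to 1.60). Slc7a5, the light chain LAT1 that carries leucine, was at 29.5 CPM (28.0 to 31.2) in LB and 17.8 CPM (16.7 to 19) in LBPXRS, a ratio of 0.602 (0.553 to 0.655), though its log2 ratio of -0.70 was -0.10 once centred on its chromosome. Slc7a11, the cystine light chain, was barely detected, its 28 UMIs in LB and 80 UMIs in LBPXRS giving a CPM ratio of 2.51 (1.61 to 4.01). The cystine importer was thus at 0.616 CPM (0.409 to 0.890) in LB and 1.54 CPM (1.22 to 1.92) in LBPXRS, the library in which the transsulfuration genes Cbs and Cth were higher. Slc1a4, a carrier of alanine and serine, was at 13.9 CPM (12.8 to 15) and 7.93 CPM (7.18 to 8.73), a ratio of 0.571 (0.503 to 0.647), but at 8.74 CPM in naive pluripotent-like LB cells, which puts its log2 ratio at -0.12 in place of -0.74. Slc7a3, another arginine carrier, was at 17.2 and 14.1 CPM, and Slc38a2, the amino acid-regulated carrier SNAT2, at 70.6 and 64.0 CPM. Slc6a9, a glycine carrier, was at 1.63 CPM (1.28 to 2.04) and 3.22 CPM (2.75 to 3.75).

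The lipoprotein receptor gene Vldlr and the hormone gene Stc2 were lower in LBPXRS against all LB cells. Vldlr was at 5.41 CPM (4.75 to 6.13) in LB and 3.13 CPM (2.66 to 3.65) in LBPXRS. Stc2, stanniocalcin, was at 14.2 CPM (13.1 to 15.3) and 9.41 CPM (8.60 to 10.3). Neither reached a 2-fold difference, and both ratios turned with the LB cells they were set against, as described next.

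LB is a mixture of cell states, so the members were also set against its naive pluripotent-like cells alone. The mesoderm list was lower in LBPXRS in 10 of 10 genes, its summed level being 266 CPM in LB, 9.76 CPM in naive pluripotent-like LB cells and 3.41 CPM in LBPXRS, with Hand1 and Msgn1 at 0 UMIs in LBPXRS. The summed trophoblast list stood at 432, 34.8 and 41.5 CPM in the same order, the formative list at 651, 803 and 147 CPM, and the primitive endoderm list at 183, 103 and 508 CPM. Single genes carried these last sums: Sparc made 460 of the 508 CPM while 5 of 8 primitive endoderm genes were below 0, and Utf1 made 553 of the 803 CPM. Against naive pluripotent-like LB cells the same 11 members were at least 2-fold higher and 0 lower, beside 9.30% and 6.73% of the 7291 genes compared. The factors with the most uneven levels within LB moved furthest. Cebpb was at 16.4 CPM (14.6 to 18.5) in naive pluripotent-like LB cells and 66.7 CPM (61.3 to 72.4) in mesoderm-like LB cells, so that its log2 ratio was 2.27 against the former and 1.07 against all LB cells. Atf3 was at 0.723 CPM in naive pluripotent-like cells and 41.7 CPM (32.1 to 53.2) in a trophoblast-like LB cluster of 45 cells, and its log2 ratio was 1.72 against the naive pluripotent-like cells. Nupr1 went the other way, with 53.8 CPM (50.3 to 57.5) in naive pluripotent-like and 5.70 CPM (4.21 to 7.56) in mesoderm-like LB cells. Against the naive pluripotent-like cells its log2 ratio was 3.07 in place of 3.75. The log2 ratio of Vldlr changed from -0.64 to 1.31 and that of Stc2 from -0.54 to 0.23, since both were higher in mesoderm-like LB cells (15.6 and 18.7 CPM) than in naive pluripotent-like ones (0.663 and 7.89 CPM). Sesn2 changed from 0.17 to -0.05.

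The chromosome touches 6 members, because genes of chromosomes 8 and 11 were lower as a whole in LBPXRS. The median log2 ratio was -0.60 over 288 genes of chromosome 8 and -0.65 over 465 genes of chromosome 11, while the medians of the other chromosomes lay between -0.17 and 0.01. Against naive pluripotent-like LB cells these medians were -0.48 and -0.58. With each gene centred on the median of its chromosome, 13 members were at least 2-fold higher and 0 lower, beside 10.1% and 6.80% of all genes. The 2 added were Eif4ebp1 and Gpt2, both on chromosome 8, at log2 ratios of 1.06 and 1.16. Slc7a5, on chromosome 8, stood at -0.10 after centring in place of -0.70. On chromosome 11, Slc1a4 stood at -0.09 in place of -0.74, Stc2 at 0.10 in place of -0.54, and Pycr1 at 1.95 in place of 1.30. The lower levels of Slc7a5 and Slc1a4 against all LB cells were thus about as large as those of their chromosomes. With centring against naive pluripotent-like LB cells, Slc7a5 stood at -0.21, Slc1a4 at 0.45 and Slc7a3, on chromosome X, at -0.84. Centred against all LB cells, Slc7a3 stood at -0.17.

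**Figure D2:**
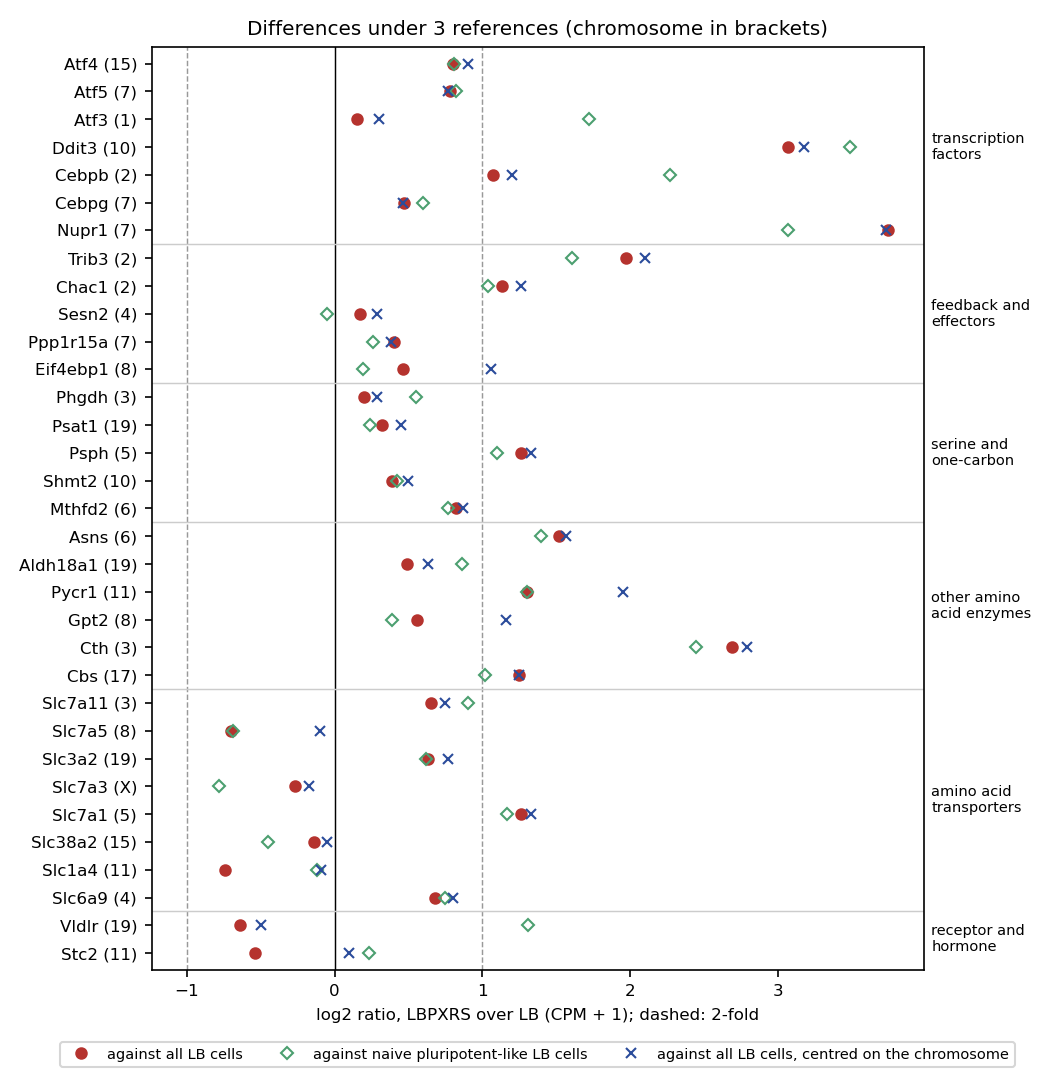
Log2 ratio of each member, LBPXRS over LB, against all LB cells (red), against naive pluripotent-like LB cells (open diamonds) and centred on the chromosome (crosses), with the chromosome in brackets and dashed lines at 2-fold. All 11 members past 2-fold stay right of the dashed line under every reference shown, with Ddit3, Nupr1, Cth and Trib3 furthest, and Vldlr spans -0.64 to 1.31.

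Other genes of the pathway, listed by their known roles but with earlier results of these data known, differed by group. Of 18 further ATF4 targets, 14 had at least 10 CPM, of which 7 were at least 2-fold higher and 0 lower, beside 7.98% and 10.4% of all genes, with a median log2 ratio of 0.83. Slc1a5, a glutamine carrier, was at 19.2 CPM (18.0 to 20.5) in LB and 111 CPM (108 to 114) in LBPXRS, and Fam129a, also called Niban1, at 2.95 CPM (2.47 to 3.49) and 19.6 CPM (18.5 to 20.9). The other 5, named after their values were seen, were Gdf15, Pck2, Vegfa, Gadd45a and Got1, with log2 ratios from 1.14 to 1.92. Against naive pluripotent-like LB cells 7 were again past 2-fold, beside 9.30% of genes, without Gadd45a (0.94) and with Ddit4, whose direction turned with the reference, at 97.7 CPM in all LB cells, 31.7 CPM in naive pluripotent-like ones and 64.8 CPM in LBPXRS. Of 14 ATF4-linked transfer RNA synthetase and export genes, 11 were above 0, with a median of 0.38 and none past 2-fold, while Gars was past it against naive pluripotent-like LB cells (1.07). Of 7 other synthetases all were below 0 when scaled by total counts, with a median of -0.75 (-0.60 with TMM scaling). That median was -0.36 centred on the chromosome and -0.42 against naive pluripotent-like LB cells, and not all 7 were below 0 under either. Against all LB cells, Farsa, Kars and Rars passed 2-fold (-1.05, -1.23 and -1.01). These 3 are the ones on chromosomes 8 and 11, and after centring none passed 2-fold.

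The eIF2 kinases and several neighbouring stress lists held few or no genes past 2-fold, where the all-gene shares above (7.98% higher and 10.4% lower) would themselves give only a few in lists of this size. The 15 genes of the eIF2 kinases and exchange factor stood at a median of -0.20 (log2 ratio), and 0 of the 12 at 10 CPM passed 2-fold either way. The 16 chaperones of the endoplasmic reticulum, targets of ATF6 and XBP1, had a median of 0.00, with 8 above 0, 8 below 0 and 0 of 15 past 2-fold. The 6 mitochondrial chaperones and proteases had a median of -0.09 and the 8 targets of p53 a median of 0.14, with none past 2-fold. The 4 cytosolic folate enzymes were all below 0 when scaled by total counts, with a median of -0.35 (-0.20 with TMM scaling). Centred on the chromosome, that median was -0.06. Of 7 targets of NRF2, 6 were below 0 when scaled by total counts, with a list median of -0.44, or -0.13 centred on the chromosome. Nqo1 was 2-fold higher (log2 ratio 1.05), which it was not against naive pluripotent-like LB cells (0.64). Of 13 immediate early genes, which dissociation can induce, 9 had at least 10 CPM and 5 of these were at least 2-fold lower, with Egr1 at -3.18, Jun at -2.64 and a list median of -0.99. Against naive pluripotent-like LB cells 3 were lower, with Egr1 at -3.59, Jun at -0.56 and a median of -0.17.

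Within LBPXRS the stress genes Ddit3, Nupr1, Trib3 and Chac1 were detected in every cluster, at levels that differed from gene to gene. Clustering gave 6 clusters, none of which could be named from the markers used, so they are given by number with their leading genes. Among the 4 clusters of over 100 cells, Ddit3 was highest in cluster 0 (led by Gata2 and Dusp4, 623 cells) at 183 CPM (176 to 191) and in cluster 1 (led by Spry2 and Nusap1, 420 cells) at 174 CPM (166 to 182), and lowest in cluster 2 (led by Eprn and Olfr655, with Fasn, 874 cells) at 74.6 CPM (70.3 to 79.1). That lowest cluster was still above the highest Ddit3 level of an LB cluster, 32.8 CPM (27.6 to 38.7). Nupr1 followed the same order, with 605, 550 and 273 CPM in clusters 0, 1 and 2. Chac1 did not, being at 10.8 CPM (9.0 to 12.8) in cluster 0, which is as low as all LB cells, and 33.1 CPM (30.2 to 36.2) in cluster 3 (led by Krt8 and Krt18, 653 cells). Cluster 3 was also the highest of the 4 in Trib3 (96.7 CPM), Asns (381 CPM), Cth (114 CPM), Psph (196 CPM) and Mthfd2 (241 CPM). Without cluster 3, Chac1 and Cebpb fell short of 2-fold against LB, and the other 9 members were still past it. Cluster 2 was the lowest of these 4 clusters in Asns (198 CPM), Slc3a2 (165 CPM) and Phgdh (96.8 CPM). As clusters are made from these same genes, their differences are a description.

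Several small clusters are shallow and differ in mitochondrial share, and the 3 with a high share had high levels of Slc3a2. In LBPXRS cluster 4 (led by Pmel, with Hspa5 and Pdia4, 51 cells) the median was 7225 UMIs with 7.01% mitochondrial UMIs, and in LB cluster 7 (led by Slc7a3 and Spp1, 57 cells) it was 10618 UMIs with 7.15%. Slc3a2 was at 1021 CPM (925 to 1125) and 571 CPM (514 to 632) in these, Slc7a3 at 118 CPM (86.4 to 156) and 222 CPM (188 to 262), and Asns at 601 CPM (527 to 682) and 454 CPM (404 to 509). Ddit3 was at 87.6 CPM (61.0 to 122) in the former and 3.07 CPM (0.372 to 11.1) in the latter, so Ddit3 was not raised with the transporters there. In LB cluster 5 (led by Ackr3 and Nrp1, 17 cells, median 7767 UMIs and 6.28% mitochondrial UMIs) Slc3a2 was at 832 CPM (688 to 997) and Slc38a2 at 199 CPM (132 to 288). Barcodes that the filters left out also had high levels, with a summed transporter level of 1027 CPM in LB and 776 CPM in LBPXRS, beside 297 and 375 CPM in kept cells. In the clusters with almost no mitochondrial UMIs the transporters were low: Slc38a2 was at 17.0 CPM (6.85 to 35.1) in LBPXRS cluster 5 and 7.13 CPM (0.181 to 39.7) in LB cluster 8 (led by Rhox6 and Gata2, 19 cells, median 5873 UMIs and 0.0322% mitochondrial UMIs), and Slc3a2 at 185 CPM (146 to 232) and 49.9 CPM (20.1 to 103). Shallow clusters thus lay on both sides of their libraries, and the small LB cluster 6 (45 cells) was deep, with a median of 32858 UMIs and 2.80% mitochondrial UMIs. The part of mitochondrial share in these levels was not tested. Cluster 5 of LBPXRS (led by Eif4a1 and Nup93, 84 cells, median 3424 UMIs and 0.0460% mitochondrial UMIs) had the highest Trib3 (136 CPM, 103 to 177) and Asns (750 CPM, 668 to 838). Leaving it out kept the same 11 members past 2-fold, as did leaving out the clusters of high mitochondrial share.

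**Figure D3:**
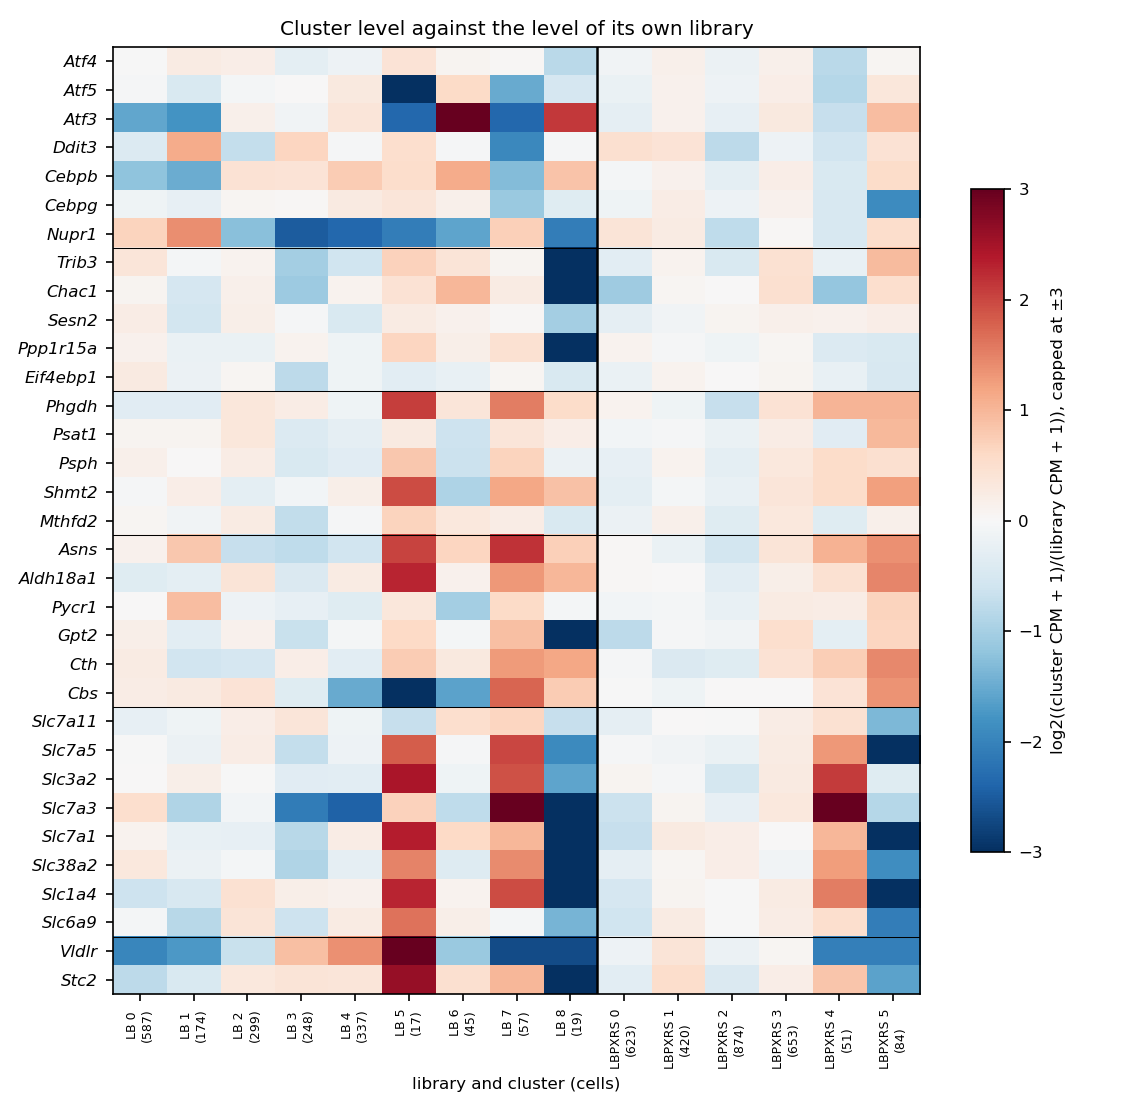
Log2 level of each member in each cluster over its own library, (CPM + 1) on both sides, capped at 3 either way, with LB clusters to the left of the thick line and cell numbers in brackets. Most transporters are raised in LB clusters 5 and 7 and LBPXRS cluster 4, while the factors are not raised together in any of these.

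Across single LBPXRS cells Nupr1, Asns and Atf4 were widespread, and Ddit3 and Cth were found in many more cells than in LB. Cells were thinned to 5000 UMIs each, which left 1733 LB and 2621 LBPXRS cells, and shares carry exact 95% Clopper-Pearson intervals for counting error. Nupr1 had a UMI in 10.9% (9.48 to 12.5) of LB cells and 77.8% (76.2 to 79.4) of LBPXRS cells, and unthinned in 29.6% and 93.1%. Atf4 had a UMI in 43.3% (41.0 to 45.7) and 64.4% (62.5 to 66.2), unthinned 82.7% and 91.6%. Both genes were found in a larger share of LBPXRS cells, thinned or not. Ddit3 had a UMI in 6.52% (5.40 to 7.79) and 39.8% (37.9 to 41.7), unthinned 23.6% and 72.1%. Cth was at 5.08% (4.09 to 6.22) and 31.5% (29.7 to 33.3), unthinned 23.6% and 70.6%. Asns, with 36.1% (33.8 to 38.4) and 67.3% (65.4 to 69.1), was already widespread in LB, unthinned 77.1% and 95%. Trib3 had a UMI in 7.96% and 26.4% of cells and Chac1 in 4.62% and 9.65%, unthinned 26.9% and 57.7%, and 15% and 27.8%. No cell class here is known to lack these genes, so the share that free RNA gives was not measured.

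**Figure D4:**
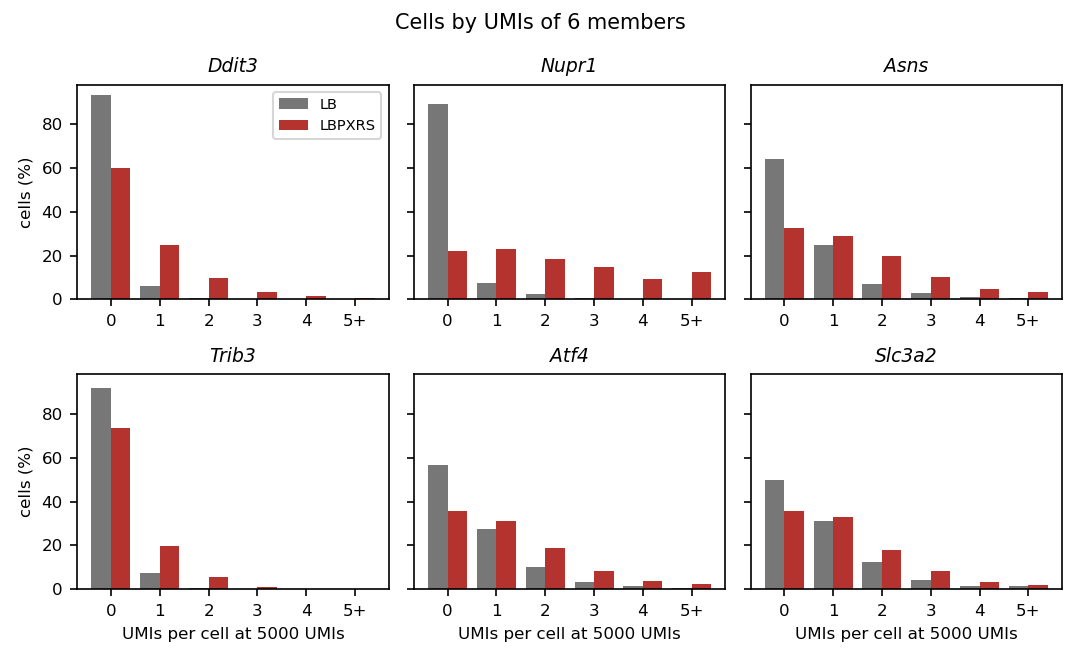
Share of cells (%) with 0 to 5 or more UMIs of 6 members after thinning to 5000 UMIs per cell, LB in grey and LBPXRS in red. For Nupr1, 89.1% of LB cells and 22.2% of LBPXRS cells have 0 UMIs, and 12.4% of LBPXRS cells have 5 or more.

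Spread between cells was taken as the squared coefficient of variation of thinned UMIs beyond that of random sampling, called excess here. Over the 4578 genes with a mean of at least 0.1 thinned UMIs in LBPXRS its median was 0.148 and its 95th percentile 0.784. Chac1 (1.63) and Ddit3 (1.04) lay above that percentile, and Trib3 (0.695) and Gpt2 (0.657) below it. Among LBPXRS cells Ddit3 ranged up to 13 UMIs, with 60.2% of cells at 0, 24.6% at 1 and 0.725% at 5 or more. Asns (0.358), Nupr1 (0.357) and Cth (0.329) were less variable, Atf4 was at 0.264, and Pycr1 (0.0216) and Sesn2 (-0.0384) varied about as random sampling does. In LB, Nupr1 had an excess of 4.46, Slc7a3 of 7.10 and Cebpb of 2.35, where the 95th percentile over 4870 genes was 1.40. Nupr1 was thus patchy in LB, where clusters ranged from 5.04 to 89.7 CPM, and present in most cells of LBPXRS.

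To see which members move together from cell to cell, LBPXRS cells were ordered by the summed thinned UMIs of Ddit3, Trib3, Chac1, Asns and Atf4. Asns and Atf4 were the largest terms of this sum, with means of 1.38 and 1.21 thinned UMIs per LBPXRS cell. Ddit3 was at 0.643, Trib3 at 0.347 and Chac1 at 0.112. Of 2621 cells, 505 (19.3%) had 0 to 1 of these UMIs and 340 (13.0%) had 7 or more, where LB had 1073 (61.9%) and 19 (1.10%) of 1733. The excess of the sum was 0.174 in LBPXRS and 0.458 in LB. Between the lowest and the highest of these LBPXRS cells the median depth before thinning was 17693 and 20835 UMIs and the median mitochondrial share 2.96% and 2.14%, whose part in the values below was not tested. The other members were compared between these cells as a description, with cell bounds set after the values were seen. Of the 22 other members with at least 20 UMIs in the lowest cells, 15 had a counting interval above 1 and 0 below 1, with a median ratio of 1.56, beside 11.8% above 1, 8.18% below 1 and a median of 1.0 over all 7628 such genes. Nupr1 was at 280 CPM (259 to 301) in the lowest and 585 CPM (549 to 623) in the highest cells, a ratio of 2.09 (1.90 to 2.31). Mthfd2 was at 120 CPM (107 to 135) and 239 CPM (217 to 264), a ratio of 1.99 (1.71 to 2.31), and Phgdh at 109 CPM (96.0 to 122) and 208 CPM (187 to 231), a ratio of 1.92 (1.63 to 2.26). Psph had a ratio of 1.58 (1.35 to 1.86), Shmt2 of 1.44 (1.12 to 1.85) and Psat1 of 1.35 (1.16 to 1.58). All 5 serine and one-carbon genes were thus higher in the cells with more of these summed UMIs. Phgdh differed little between the libraries against all LB cells (log2 ratio 0.20), and by more against naive pluripotent-like LB cells (0.55).

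Most other amino acid enzymes followed the sum as well, and among the 5 transporters with at least 20 UMIs in the lowest cells, Slc3a2 was the one with an interval above 1. Cth had a ratio of 1.62 (1.30 to 2.01), Pycr1 of 1.64 (1.25 to 2.16) and Aldh18a1 of 2.0 (1.23 to 3.26). Slc3a2 was at 176 CPM (160 to 193) in the lowest and 294 CPM (269 to 321) in the highest cells, a ratio of 1.67 (1.47 to 1.90). The intervals of Slc7a1 (1.05, 0.680 to 1.62), Slc7a3 (1.05, 0.595 to 1.82), Slc7a5 (0.903, 0.558 to 1.44) and Slc38a2 (1.16, 0.900 to 1.5) all include 1. Sesn2 (1.09, 0.786 to 1.52) and Cbs (1.18, 0.756 to 1.84) did so too. Slc7a1 and Cbs were past 2-fold between the libraries without such a gradient between the lowest and highest LBPXRS cells. Their intervals would still allow one of up to 1.62 and 1.84. In the cells between, Slc7a1 was at 33.4 CPM (28.2 to 39.3) and 34.1 CPM (28.9 to 39.9). In the lowest and highest cells it was at 21.8 CPM (16.4 to 28.4) and 22.9 CPM (16.3 to 31.4). In LB, 19 cells had 7 or more of the summed UMIs. There intervals lay above 1 for Slc3a2 (2.75, 1.90 to 3.86), Slc7a5 (2.99, 1.18 to 6.35) and Slc1a4 (4.41, 1.39 to 10.8). Those of Slc7a3, Slc7a1 and Slc38a2 included 1.

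**Figure D5:**
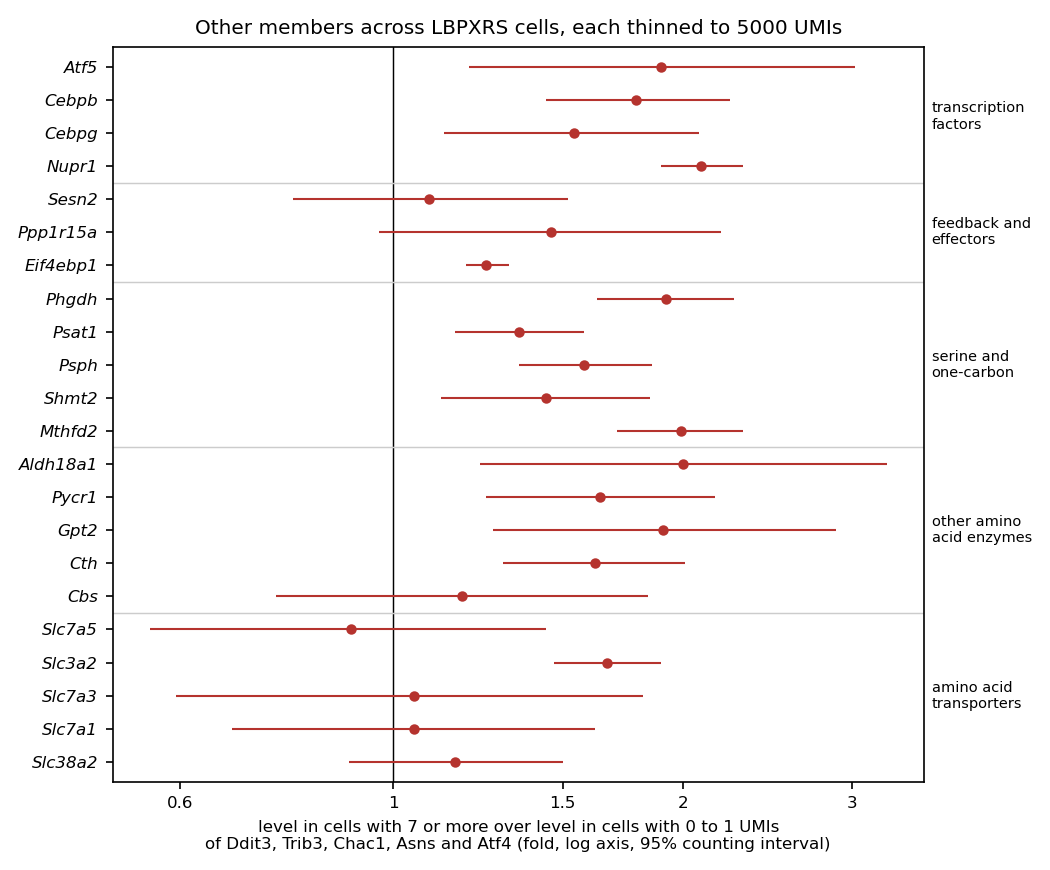
Ratio of each member's level in LBPXRS cells with 7 or more to that in cells with 0 to 1 summed UMIs of Ddit3, Trib3, Chac1, Asns and Atf4, log axis, with 95% counting intervals, for members with at least 20 UMIs in the lowest cells. Nupr1, Mthfd2 and Phgdh lie near 2, and the intervals of Slc7a5, Slc7a3, Slc7a1 and Slc38a2 include 1.

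Pairwise correlations over single cells were weak. Over the 528 pairs of members in 2621 LBPXRS cells, Pearson's r of log thinned UMIs had a median of 0.02 and ran from -0.05 to 0.20, the highest being Ddit3 with Nupr1. All pairs share the same library and depth, and values this small in sparse counts are no finding on their own. The genes outside the list with the highest r with the summed 5 genes, among 4570 genes ranked, were Chchd10 (0.25), Eif1 (0.23), 2410006H16Rik (0.21), Ubb (0.19), Ghitm (0.18), Snhg1 (0.17), Rps2, Snhg5 and Gas5 (0.16 each) and Eif5a (0.15).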

How the data were processed

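The authors deposited UMI counts per gene and barcode for each library, made with Cell Ranger 4.0.0 on mm10 per the submitters' processing notes; how cells were called is not given in the sources used here. Barcodes with at least 1000 genes and at most 10% mitochondrial UMIs were kept, which left out 225 of 2008 barcodes in LB and 406 of 3111 in LBPXRS, and total UMIs of kept cells were 45490517 and 51832444. Doublets marked by Scrublet (18 LB and 10 LBPXRS cells, 0.370% of the latter, too few to trust the caller) were kept. UMIs were summed per library and scaled to CPM, and log2 ratios used a pseudocount of 1. Cells were clustered in scanpy 1.11.5 (2000 variable genes, 30 principal components, 15 neighbours, Leiden resolution 0.5), and a cluster was named only with at least 3 raised markers of a list. For spread, each cell was thinned to 5000 UMIs, leaving out 50 LB and 84 LBPXRS cells. The chromosome's median came from genes with a mean of at least 20 CPM. Positions are from GENCODE M21 (GRCm38), in which 32158 of 32285 gene IDs were found, and promoter windows from RefSeq on the same build. Mars1 and Niban1 were matched as Mars and Fam129a.

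No test was run, since each condition has 1 library. A call is a 2-fold difference at 10 CPM or more in either library. Named genes were all 33 members, up to 2 highest and 2 lowest past 2-fold in each other list, and the 10 genes outside the members with the highest correlation with 5 members. Gdf15, Pck2, Vegfa, Gadd45a, Got1, Gars, Ddit4, Sparc, Utf1, Klf2, Zfp42 and Rars fall outside this rule and were named after their values were seen, as were markers at 0 and genes leading clusters. The members, lists and bounds were chosen with earlier results of these data known. The 2-fold rule and the measure of spread were tested on simulated data. Alternatives were TMM scaling (edgeR 4.0.16), other pseudocounts, filters, cell sets and thinning depths.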

Additional observations from a re-analysis of the deposited data

How the results depend on the processing

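The count of members at least 2-fold higher ranged from 8 to 13 over the alternatives tried. As reported it was 11 of 29, beside 7.98% of all genes. A CPM minimum of 50, which leaves out Cbs, Chac1 and Slc7a1, gave 8 of 16, beside 7.46%. With a pseudocount of 5 it was 9 of 29, without Cbs and Chac1, beside 5.94%. Leaving out LBPXRS cluster 3 gave 9 of 29, losing Cebpb and Chac1, beside 8.07%. Centring on the chromosome gave 13 of 29, beside 10.1%. Against naive pluripotent-like LB cells with centring on the chromosome it was 10 of 27, without Cbs, beside 9.93%. No member was 2-fold lower except Slc1a4, 1 gene, when CPM was averaged over cells. The median log2 ratio over members, 0.63, was 0.73 with TMM scaling, which moves the median of all genes from -0.14 to 0.00 and the ratio of Slc38a2 from -0.14 to 0.01. It was 0.46 with a pseudocount of 5, 0.52 as a mean over cells, 0.77 with centring, and 0.79 against naive pluripotent-like LB cells, or 0.80 with centring too, where Slc7a11 drops out for averaging under 1 CPM (0.81 with it, without centring), and 0.52 without LBPXRS cluster 3. The excess of the 5 summed genes in LBPXRS, 0.174, was 0.156 at 10000 UMIs per cell and 0.166 without barcodes under 0.5% mitochondrial UMIs. Leaving out cluster 3, the clusters of high mitochondrial share, and the joint restriction and centring were chosen after seeing the data. No paired analysis was possible because each condition has 1 library, and no library could be left out. Depth limits Slc7a11, Slc6a9, Vldlr and Atf3, all under 10 CPM in both libraries.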
